A study of Mus musculus with 6 samples.

Results

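DNA methylation was compared between obstructed kidneys under treatment with 5AZA, as the drug is named in the labels, and kidneys of sham-operated mice. The comparison took 4 of the 6 libraries of the series, chosen by their treatment labels: 2 of UUO+5AZA and 2 of sham. All mice were wild type male C57BL/6J, and DNA came from kidney cortex and outer medulla. UUO is unilateral ureteral obstruction, in which the left ureter is ligated and cut, a standard model of renal fibrosis. The 5AZA kidneys had been obstructed for 7 days and the mice received 1 mg/kg of 5AZA per day by intraperitoneal injection. Sham 1 was operated as the control of the obstruction and sham 2 as the control of an ischemia/reperfusion experiment, with 48 hours in its name. The remaining 2 libraries, obstructed for 7 days with saline injection, served here to sort sites into classes and as a value beside the others. No sham kidney with 5AZA and no second dose are among the labels, so drug and obstruction both separate the groups. Whole tissue was used, so altered methylation within cells and an altered mix of cell types cannot be told apart. Separate mice are not stated for the libraries of a group, so p-values measure only how far these samples spread. Within 5AZA and within saline that spread may be technical. The sham libraries came from different experiments, so their spread includes any difference between those.

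Mammalian cells methylate the cytosine of most CpG dinucleotides and keep CpG-dense promoters largely free of methylation. After each round of DNA synthesis the enzyme Dnmt1 copies the methyl marks onto the new strand. Aza-cytidine drugs are built into nucleic acids, where they trap DNA methyltransferases, so that marks are lost as cells divide. Germline genes and imprinted genes are among those whose promoters or control regions are normally methylated in the adult kidney.

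The assay was reduced representation bisulfite sequencing, which cuts DNA at CCGG with MspI and reads short fragments. The 2 sham libraries held 68501854 and 37728517 covering reads over CpG sites, with a median coverage of 37 and 21 reads per site, and the 5AZA libraries held 57853745 and 64539660, with a median of 36 and 33. The union of the libraries held 2134823 sites, and the 943307 with 10 or more reads in each of the 6 were used. Among them 120787 sites (12.8%) were candidate fragment ends, at which the cut end is filled in with methylated cytosine during library preparation. In promoter stretches with known sequence 94.7% of the candidates lay in CCGG, and CCGG sites there averaged 73.1% (sham 1), 69.4% (sham 2), 73.2% (5AZA 1) and 73.4% (5AZA 2), against 2.79%, 1.80%, 2.90% and 2.87% at the other CpG sites. Sham 2 was the shallowest library. It also had the lowest level at the 4 deeply covered mitochondrial sites of low methylation, 0.622% against 1.43% in sham 1 and 1.33% and 1.23% in 5AZA. Values without it, or against sham 1 alone, are given where they differ.

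Kidneys treated with 5AZA had less methylation than sham at the sites that are most methylated in this tissue, while at other sites the groups overlapped or differed mainly through sham 2. The average over all 943307 sites did not show it: sham 1 had 44.4%, sham 2 had 42.9%, and the 5AZA libraries had 43.5% and 43.1%, both between the sham values. Sites were therefore sorted by their mean level in the saline libraries, which belong to neither group compared. At the 162529 sites of 95% or more the sham libraries had 96.5% and 95.9%, and the 5AZA libraries had 94.7% and 93.9%. Both 5AZA libraries lay below both sham libraries, and the group means differed by -1.87 percentage points (sham 96.2% ± 0.417, 5AZA 94.3% ± 0.609, SD, n = 2 each). At the 173325 sites of 80 to 95% sham had 87.4% and 85.6% and 5AZA had 85.0% and 83.7%, again without overlap, a difference of -2.19 points. For both classes p = 0.33 (exact permutation test, two-sided), which with 2 libraries per group is the lowest reachable.

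Between 5 and 80% the groups overlapped. At 60 to 80%, sham had 71.2% and 67.6% and 5AZA had 69.8% and 69.7%. At 40 to 60% the values were 50.1% and 46.2% in sham and 47.9% in each 5AZA library, and at 20 to 40% they were 25.7% and 23.1% in sham and 24.5% and 23.8% in 5AZA. In these 3 classes the 5AZA libraries sat between sham 1 and sham 2, and the sign of the difference depended on the sham library taken: against sham 1 it was -1.45, -2.19 and -1.54 points, and against sham 2 it was 2.19, 1.72 and 1.09 points. Saline-treated obstructed kidneys had 72.0%, 51.5% and 29.6% in the 3 classes. These saline values chose the classes and are given as a description. Candidate fragment ends made up 52.6% of the sites at 60 to 80% and 24.9% at 40 to 60%. Without them, sham had 70.6% and 67.4% and 5AZA 67.8% and 67.0% at 60 to 80%, a difference of -1.60 points (-3.24 against sham 1 and 0.0337 against sham 2), and at 40 to 60% the difference was -1.30 points (-2.96 and 0.357). The groups still overlapped in both classes, but 5AZA 2 then lay slightly below sham 2.

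Sites under 5% stood slightly higher in 5AZA than in sham. The 383044 sites had 1.58% in sham 1, 0.759% in sham 2, and 1.68% and 1.70% in 5AZA, a difference of 0.519 points, of which 0.108 points were left against sham 1 alone. Sham 2 alone was low here, as it was at the mitochondrial sites.

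**Figure D1:**
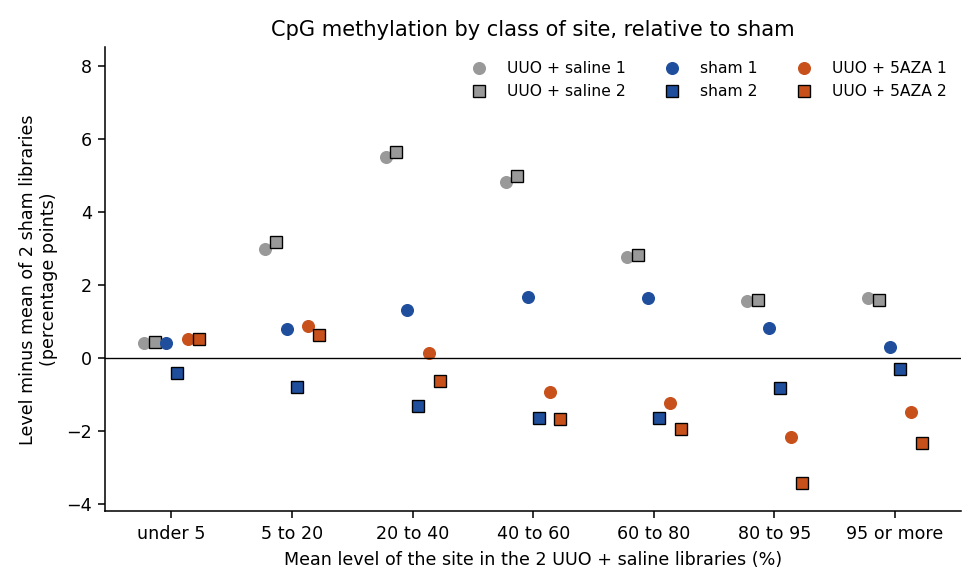
Methylation level of each library minus the mean of both sham libraries, in percentage points, for 7 classes of CpG site cut by the mean level of the saline libraries, without candidate fragment-end sites. Circles are the libraries numbered 1 and squares those numbered 2. Both 5AZA libraries lie below both sham libraries at 80 to 95% and at 95% or more.

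The lower level was found across the whole genome. Over the 287658 sites of 80% or more that were no candidate fragment ends, sham 1 and sham 2 had 92.7% and 91.6% and the 5AZA libraries had 90.3% and 89.3%, a difference of -2.34 points. Both 5AZA libraries lay below both sham libraries on all 19 autosomes, with differences from -2.53 points on chromosome 3 to -2.07 on chromosome 11, and on the X chromosome, where the difference was -2.87 points. Of 522 bins of 5 Mb with at least 100 such sites, 516 showed this order and 0 the opposite one, with a median difference of -2.44 points and a range of -4.48 to -0.853. Chromosomes and bins share the level of their library, so these counts add no replicates.

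The size of the difference varied with position relative to CpG islands. Highly methylated sites within 1 kb of an unmethylated CpG-dense window (at least 10 sites, mean under 10% in saline) had 86.8% and 85.1% in sham and 86.0% and 84.4% in 5AZA. Here the groups overlapped, and the difference was -0.770 points. At 1 to 5 kb it was -2.12 points, and at 100 kb or more it was -2.65 points, with 93.5% and 92.6% in sham and 90.9% and 89.9% in 5AZA. The highly methylated sites next to islands were also the ones that stood highest above sham in saline, by 4.33 points, against 1.19 points at 100 kb or more, a description only, since saline chose these sites. By the number of covered CpG sites in the same 1 kb, the difference was -1.49 points at 1 or 2 sites, -2.76 points at 5 to 9 and -1.50 points at 20 or more. These differences between positions were not tested.

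At single sites of 95% or more the difference lay mostly in how many sites had 1 or 2 unmethylated reads of 10. At such high levels 10 reads seldom hold more than 2 unmethylated ones. This outcome therefore follows largely from the class and the draw, and does not show how the difference was spread over sites. To compare libraries of unlike coverage, the expected outcome of drawing 10 reads per site was computed at 148512 sites of 95% or more. All 10 reads were methylated at 72.0% and 69.98% of sites in sham 1 and sham 2 and at 61.1% and 57.1% in 5AZA. Sites with 1 or 2 unmethylated reads made up 27.0% and 28.0% in sham and 36.4% and 39.3% in 5AZA. Sites with 3 or 4 made up 0.988% and 1.91% in sham and 2.38% and 3.48% in 5AZA. Sites with 5 or more reached 0.0246% and 0.111% in sham and 0.0747% and 0.170% in 5AZA, where the groups overlapped. At the 139146 sites of 80 to 95% the difference was nearly as large for 3 or 4 unmethylated reads (11.4% and 14.6% in sham, 16.6% and 19.01% in 5AZA, 4.804 points) as for 1 or 2 (4.92 points).

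**Figure D2:**
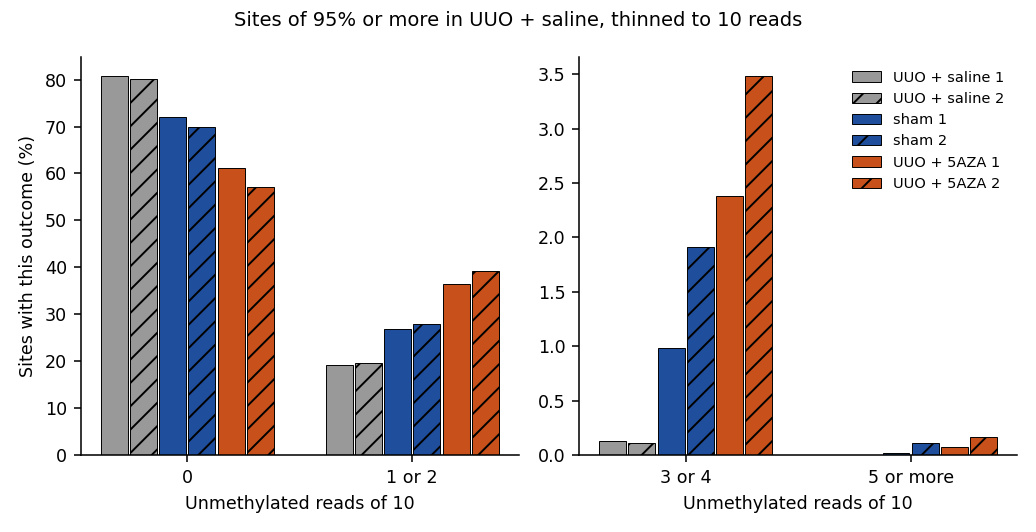
Expected share of 148512 sites (y axis, percent) with a given number of unmethylated reads when 10 reads are drawn per site (x axis), for sites of 95% or more in the saline libraries; bars are libraries and hatched bars those numbered 2, and the right panel has its own scale. Sites with 10 of 10 methylated reads make up 72.0% and 69.98% in sham and 61.1% and 57.1% in 5AZA; saline chose the sites and stands high for that reason.

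Windows of 1 kb (3 or more CpG sites) showed the same order, but single windows rarely passed a test. Reads were summed per window and tested with edgeR's quasi-likelihood test, with Benjamini-Hochberg adjustment over all 89813 windows. At an adjusted p under 0.05 it called 1 window (0.00111% of those tested), which was lower in 5AZA. At an unadjusted p under 0.05 it gave 13216 windows (14.7%), 11932 of them lower in 5AZA (13.3%) and 1284 higher (1.43%). Both 5AZA libraries lay below both sham libraries in 31.9% of windows and above both in 12.9%. In the 15629 windows of 95% or more in saline these shares were 57.2% and 1.76%, and in the 13481 windows of 5 to 20% they were 3.40% and 34.6%. Differences between a 5AZA and a sham library were correlated with those of the remaining pair, for both pairings. Across 48696 windows of 80% or more r was 0.0851 and 0.0945. At a minimum of 200 reads it was 0.110 and 0.131, and -0.0229 and 0.179 at 20 to 80%. Which windows differed most thus repeated only weakly between libraries. The number of called windows depended on the library left out. Without sham 1 the window called over all 6 libraries was not called, though its 5AZA mean was -6.63 points from sham 2. Without sham 1 the windows at an unadjusted p under 0.05 were 6861 lower and 5357 higher. With libraries centred, limma gave 12551 lower and 688 higher at that level and called 0, and without centring limma also called 0, with 12357 at an unadjusted p under 0.05.

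**Figure D3:**
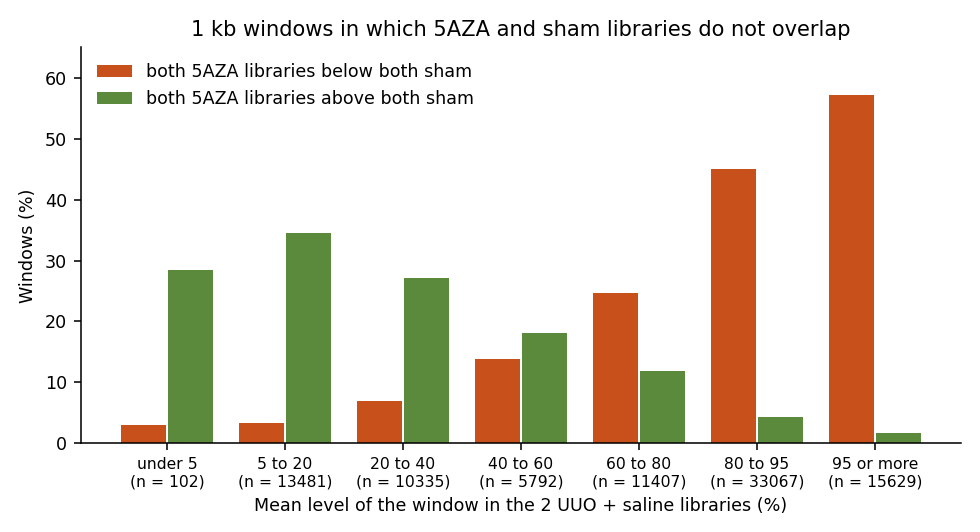
Share of 1 kb windows (y axis, percent) in which both 5AZA libraries lay below (orange) or above (green) both sham libraries, by the mean level of the window in the saline libraries (x axis, with the number of windows). The share below is 57.2% in the class of 95% or more, and the share above is 34.6% at 5 to 20%.

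The called window was chr8:46095001-46096000 (positions are on mm9 throughout), with 14 CpG sites and between 318 and 1493 reads per library. Its level was 99.2% in sham 1, 98.8% in sham 2, 97.6% and 98.1% in saline, and 92.8% and 91.5% in 5AZA. Both saline libraries lay slightly below both sham libraries, by -1.14 points on average. Both 5AZA libraries lay further below, with a difference from sham of -6.81 points (edgeR adjusted p = 0.0147, and 0.224 without candidate fragment-end sites). The window itself held no such site, and its levels were the same in both fits. The dispersion common to all windows was 0.00632 in the main fit and 0.0187 without candidate fragment-end sites. The nearest placed gene starts were Triml2, 1829.6 kb away on one side, and Mtnr1a, a melatonin receptor gene, 58.96 kb away on the other. In RefSeq's gene order 7 coding genes lie between them, among them Zfp42, Adam34 and the atypical cadherin gene Fat1.

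The 10 windows with the smallest p among those lower in 5AZA showed several patterns, and 9 of them had an adjusted p of 0.068 or 0.0686 and were not called. Sham took part in choosing these windows, so how saline stood against sham in them is a description only. In a window 153.6 kb downstream of the start of St6galnac3, a sialyltransferase gene (chr3:153234001-153235000, 7 sites), the level was 94.5% and 96.5% in sham, 85.8% and 87.2% in saline and 74.3% and 79.1% in 5AZA, a difference from sham of -18.8 points. Obstructed kidneys with saline thus stood below sham there, and those with 5AZA lower still. Windows 64.7 kb upstream of Xylt2, which codes for an enzyme that starts glycosaminoglycan chains (chr11:94603001-94604000), and between Rere and Errfi1, an inhibitor of the EGF receptor (chr4:150144001-150145000), had the same order. The Xylt2 window had 95.9% and 94.7% in sham, 90.9% and 92.1% in saline and 84.3% and 86.2% in 5AZA, and the Errfi1 window had 97.1% and 94.2%, 88.3% and 90.0%, and 85.6% and 82.8%.

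In the other 6 windows the saline mean lay within 1.39 points of the sham mean. A window 15.1 kb downstream of the start of Exoc1, which codes for a subunit of the exocyst (chr5:76973001-76974000, 8 sites), had 97.0% and 97.1% in sham, 97.2% in both saline libraries and 88.1% and 89.0% in 5AZA. Near Prickle1, a planar cell polarity gene (chr15:93331001-93332000, 32 sites), sham had 96.2% and 96.9% and 5AZA 91.2% and 89.9%. Near Pxdn, whose product crosslinks collagen IV (chr12:30687001-30688000, 36 sites), sham had 97.2% and 97.4% and 5AZA 94.5% and 93.5%. The windows 19.4 kb downstream of the start of Gm12992 and 482.9 kb downstream of that of Cntn1 differed by -3.66 and -5.48 points. A window 2.12 kb downstream of the start of Eef2, translation elongation factor 2 (chr10:80641001-80642000), differed by -4.68 points. On the log2 odds scale of the test (odds of a methylated read) the direction turned, to 0.0345, without the most deeply covered sites.

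**Figure D4:**
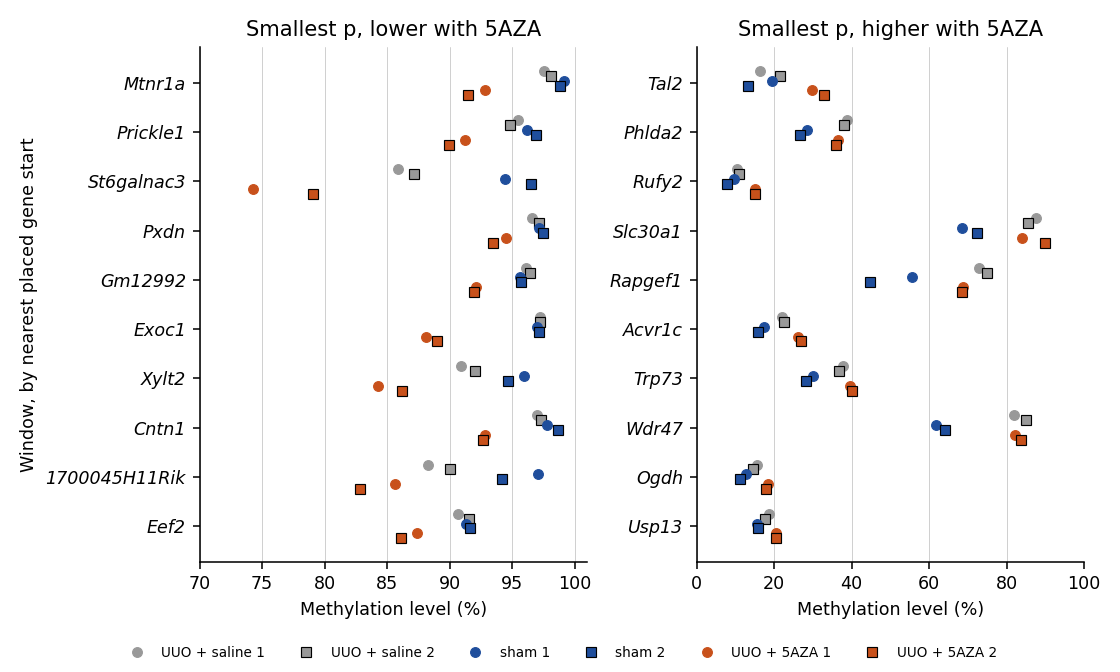
Methylation level (x axis, percent; the panels differ in range) in all 6 libraries for the 10 windows of smallest p that were lower in 5AZA than sham (left) and the 10 that were higher (right), named by the nearest placed gene start. On the left the 5AZA libraries stand apart below sham, by 18.8 points near St6galnac3; on the right saline and 5AZA stand together above sham near Wdr47, Trp73 and Slc30a1.

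No window was called higher in 5AZA than in sham. Among the 10 of smallest p in that direction, several had a level close to that of the saline libraries. Sham took part in choosing these windows as well, so saline against sham in them is a description only. The window 49.8 kb downstream of the start of Wdr47 (chr3:108444001-108445000, 3 sites, 73 to 155 reads) had 61.9% and 64.2% in sham, 81.9% and 84.9% in saline and 82.0% and 83.6% in 5AZA, a difference from sham of 19.8 points (edgeR adjusted p = 0.132). The window 28.8 kb downstream of the start of Slc30a1, a zinc exporter gene (chr1:193759001-193760000), had 68.4% and 72.3% in sham, 87.6% and 85.5% in saline and 84.0% and 89.9% in 5AZA. The window upstream of Rapgef1 (chr2:29337001-29338000) had 55.6% and 44.7%, 72.8% and 74.9%, and 68.8% and 68.4%. In these 3 windows all 4 libraries of obstructed kidney stood above both sham libraries, with or without the drug.

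The same held at 2 further windows. A window 24.8 kb downstream of the start of Trp73, a relative of the p53 gene (chr4:153446001-153447000, 14 sites), had 30.0% and 28.2% in sham, 37.8% and 36.8% in saline and 39.7% and 40.0% in 5AZA (edgeR adjusted p = 0.132). A window with 58 sites (chr7:150645001-150646000, 1961 to 3905 reads) had 28.6% and 26.8% in sham, 38.8% and 37.9% in saline and 36.5% and 35.9% in 5AZA, a difference of 8.53 points (edgeR adjusted p = 0.0974). It lies between the placed starts of Tssc4 and Phlda2, an interval that in RefSeq order also holds Trpm5, Kcnq1, Slc22a18 and the imprinted cell cycle inhibitor gene Cdkn1c. The window between Fsd1l and Tal2 (chr4:53727001-53728000, 35 sites) behaved differently: sham had 19.3% and 13.3%, saline 16.3% and 21.6%, and 5AZA 29.8% and 32.9%, so that 5AZA exceeded saline as well (edgeR adjusted p = 0.0899 against sham). The differences near Rufy2 and Ogdh, of 6.38 and 6.14 points, were 1.60 and 2.94 points without candidate fragment-end sites. In the window whose nearest placed start was Usp13, 324.95 kb away, the difference went from 4.73 to 0.603 points. That near Acvr1c, a TGF-beta family receptor gene, went from 9.92 to 8.58.

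To ask how far windows of higher methylation in obstructed kidneys with saline also stood above sham under 5AZA, windows were chosen with one sham library and read against the other, which had no part in the choice. Of the windows, 1640 were at least 10 points higher in both saline libraries than in sham 1. In these, the sham library kept out, sham 2, had 58.4%, saline had 72.2% and 71.3%, and 5AZA had 61.5% and 60.4%, on average 2.52 points above sham 2. Over all windows 5AZA was -0.574 points from sham 2, but that value varied with the level of the window. By class of saline level it was 2.37 points at 20 to 40%, 2.03 at 40 to 60%, 0.412 at 60 to 80% and -2.20 at 80 to 95%. No windows of matched level were compared. In the reverse choice, 5375 windows were at least 10 points higher in both saline libraries than in sham 2. Here sham 1, kept out, had 67.1%, saline 73.9% and 73.4%, and 5AZA 65.8% and 65.3%, an average of -1.55 points from sham 1, against -2.30 points over all windows. The saline levels chose these windows and are given as a description, so they allow no comparison with 5AZA. Whether a remainder above sham was left depended on the sham library: it was positive against sham 2 and negative against sham 1.

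Windows chosen as lower in saline averaged below the sham library kept out. In the choice with sham 1, 5AZA 1 stood further below it than over windows at large, and 5AZA 2 did not. Windows at large were not matched to them in level. In the 449 windows at least 10 points lower in both saline libraries than in sham 1, sham 2 had 59.2%, saline 53.7% and 56.0%, and 5AZA 56.5% and 58.6%, an average of -1.63 points from sham 2. Over all windows that average was -0.574 points. By library, 5AZA 1 was -2.67 points from sham 2, against -0.317 over all windows. The other library, 5AZA 2, was -0.600 points from sham 2, against -0.832 over all windows. Both 5AZA libraries lay below sham 2 in 42.8% of the 449 windows, against 40.7% of all windows. In the 385 windows chosen with sham 2, sham 1 had 73.1%, saline 66.7% and 67.3%, and 5AZA 69.1% and 67.3%, an average of -4.90 points from sham 1, and both 5AZA libraries lay below sham 1 in 61.8% of them, against 55.2% of all windows.

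Gene promoters were reached by matching the CpG spacing of RefSeq promoter sequences to the covered sites. This placed 9557 of 27025 genes, and 9263 promoters (1000 bp before to 500 bp after the start) could be tested. edgeR's quasi-likelihood test called 0 of them (0%) at an adjusted p under 0.05. At an unadjusted p under 0.05 it gave 535 (5.78%), 78 of them lower in 5AZA (0.842%) and 457 higher (4.93%). limma called 5, all lower, and 0 once libraries were centred. The direction of the small differences rested on the scaling and on the sham library: at an unadjusted p under 0.05, limma with centred libraries gave 255 lower and 222 higher promoters, while edgeR gave 49 lower and 2185 higher without sham 1 and 142 lower and 186 higher without sham 2. The median promoter had 1.01 points more in 5AZA than in sham, 0.194 points against sham 1 alone and 1.87 points against sham 2 alone. Both 5AZA libraries lay above both sham libraries at 34.7% of promoters and below both at 3.7%, and at 33.4% and 4.29% without candidate fragment-end sites.

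Promoters that are methylated in the kidney stood the other way. Promoters were classed by their saline level without candidate fragment-end sites and compared over all shared sites. Of the 106 of 80% or more, both 5AZA libraries lay below both sham libraries at 52 and above both at 0, and the median difference was -2.43 points. Of the 8337 promoters under 20%, 200 lay below and 3039 above, with a median of 1.04 points, or 0.230 against sham 1 alone. The 10 promoters of smallest p in the lower direction were Yy2, Sec1, Fam181a, Naa11 with 4930467D21Rik, 4930478L05Rik, Gm24463, Gm43915, and 1700080O16Rik with Gm35790, where paired names share the same sites. All but Fam181a and Gm24463 had over 88% in both sham libraries.

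The sequence before 3 starts is shown because nearly all of their covered sites were lower in 5AZA. Sites this close together share reads, so counts of sites at these starts add no replicates. Over all single sites tested, both 5AZA libraries lay below both sham libraries at 16%. Each line gives the 250 bases before the start from RefSeq (GRCm38.p6), 5′ to 3′ on the gene's strand, with capitals for each CpG site that had 10 or more reads in every one of the 6 libraries. On mm9 they lie at chrX:154006918-154007167 (Yy2, minus strand), chr7:25457070-25457319 (Tex101, minus strand) and chr9:88961417-88961666 (Gm24463, plus strand). Of 20, 19 and 24 CpGs in the RefSeq stretches from 250 bases before to 50 after the start, 18, 14 and 17 matched covered positions. The MspI site CCGG (the same on both strands) occurs in all 3, and in 47.1% of all RefSeq promoter stretches of this length.
Yy2: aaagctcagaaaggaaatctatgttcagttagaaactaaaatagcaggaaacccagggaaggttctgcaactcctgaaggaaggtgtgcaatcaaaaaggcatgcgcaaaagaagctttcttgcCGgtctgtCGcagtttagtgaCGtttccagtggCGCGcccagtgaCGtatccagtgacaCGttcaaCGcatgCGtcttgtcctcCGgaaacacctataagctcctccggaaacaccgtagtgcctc
Tex101: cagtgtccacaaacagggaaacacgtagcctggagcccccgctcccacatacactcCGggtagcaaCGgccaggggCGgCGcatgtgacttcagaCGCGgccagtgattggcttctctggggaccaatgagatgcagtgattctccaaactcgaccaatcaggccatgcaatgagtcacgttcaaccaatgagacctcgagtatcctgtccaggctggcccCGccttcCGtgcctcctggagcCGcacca
Gm24463: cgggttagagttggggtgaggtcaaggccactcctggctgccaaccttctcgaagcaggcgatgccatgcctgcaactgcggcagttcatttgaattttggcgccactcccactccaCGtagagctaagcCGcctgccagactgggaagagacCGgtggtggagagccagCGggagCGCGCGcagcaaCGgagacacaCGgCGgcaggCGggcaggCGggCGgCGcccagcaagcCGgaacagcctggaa

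Yy2, an intronless copy of the zinc finger gene Yy1 on the X chromosome, had the smallest p of all promoters. Its 10 covered sites had a level of 97.6% and 97.3% in sham, 94.2% and 96.0% in saline and 87.1% and 89.1% in 5AZA (150 to 424 reads per library). The difference of -9.39 points between 97.5% ± 0.192 and 88.1% ± 1.40 (SD, n = 2 each) did not pass over all promoters (edgeR adjusted p = 0.338, and 0.00572 to 0.996 over the alternatives). Site by site, both 5AZA libraries lay below both sham libraries at 7 of 10 positions. The site 105 bases before the start differed most, with 100% in both sham libraries and 70.8% and 87.5% in 5AZA. The site 42 bases before the start had 100% in all 6 libraries, but it lies in a CCGG, where cytosine filled in at cut ends can raise the level.

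Tex101, which codes for a germ cell surface protein, had 93.1% and 95.3% in sham, 94.2% and 93.6% in saline and 90.0% and 89.9% in 5AZA over 22 sites. At 8 of the 9 covered sites of the printed stretch both 5AZA libraries lay below both sham libraries, and the largest difference was -10.2 points, 29 bases before the start. Gm24463, a predicted gene, had 77.0% and 71.7% in sham and 56.6% and 59.9% in 5AZA, a difference of -16.1 points over 22 sites, but the saline libraries differed from each other, with 66.0% and 79.0% (edgeR adjusted p = 0.756). At 13 of its 15 covered sites both 5AZA libraries lay below both sham libraries. The 2 sites furthest from the start had 73.5% and 80%, and 79.4% and 75.0%, in sham, and 37.3% and 38.1%, and 42.4% and 40.5%, in 5AZA. The 2 sites in CCGG stayed above 78% in all of these 4 libraries, but cytosine filled in at cut ends can raise the level at CCGG.

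**Figure D5:**
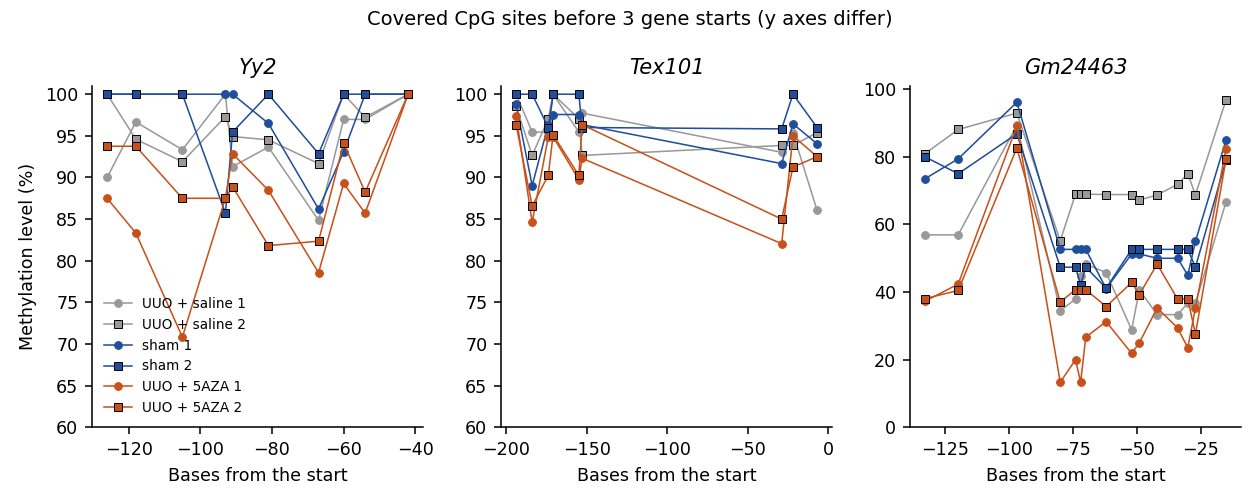
Methylation level (y axis, percent; the right panel starts at 0 and the others at 60) of each covered CpG site against its distance from the gene start (x axis, bases) for Yy2, Tex101 and Gm24463, with 1 line per library. The 5AZA lines run below the sham lines at 7 of 10, 8 of 9 and 13 of 15 sites.

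Sec1, a fucosyltransferase gene, had 96.4% and 97.5% in sham and 90.8% and 89.0% in 5AZA over 12 sites, with saline at 97.0% and 96.9%, but its position rested on only 6 matched CpGs. Naa11, an N-terminal acetyltransferase gene that shares its covered sites with 4930467D21Rik, had 96.7% and 96.0% in sham and 92.7% and 93.4% in 5AZA. Fam181a, of intermediate level, had 49.1% and 46.8% in sham, 46.3% and 48.8% in saline and 39.4% and 38.8% in 5AZA. All 3 had an adjusted p of 0.357 or 0.756 by edgeR.

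Among the gene lists, the germline genes were the only list with a median below 0. Of 40 listed germline genes 15 were tested, 0 were called, both 5AZA libraries lay below both sham libraries at 4 and above both at 2, and the median difference was -1.25 points. Over all promoters 3.7% lay below and 34.7% above, with a median of 1.01 points, and of the 106 promoters of 80% or more 52 lay below, with a median of -2.43 points. Dazl, an RNA-binding protein gene of germ cells, had 91.3% and 91.4% in sham, 90.6% and 90.0% in saline and 87.4% and 88.0% in 5AZA. Dazl and Tex101 were singled out after their values were seen. Ddx4, a germ cell helicase gene, stood the other way, with 67.5% and 70.4% in sham and 73.7% and 75.6% in 5AZA. The list's median level in sham was 86.2%, so it consists largely of methylated promoters.

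The counts of the next lists are to be read against all promoters, of which 34.7% lay above both sham libraries and 3.7% below both. Of the 33 genes of matrix and myofibroblasts 11 were tested, with 0 called, 4 above and 0 below, and a median of 1.17 points. Tgfbr2, a TGF-beta receptor gene and the member with the smallest p (edgeR unadjusted p = 0.0548), had 12.9% and 12.7% in sham and 15.0% and 15.1% in 5AZA. Without candidate fragment-end sites it had 1.16% and 1.49% in sham and 2.31% and 2.49% in 5AZA. The 6 antifibrotic genes tested of 16 had a median of 1.28 points with 4 above and 0 below. The 18 Notch pathway genes tested of 25 had 1.29 points with 7 above and 1 below, the 13 methylation enzymes tested of 17 had 0.664 points with 3 above and 0 below, and the 15 nephron transcription factors tested of 32 had 1.34 points with 6 above and 0 below. Homeobox genes of the Hox clusters (11 of 39 tested, 0.944 points), growth arrest genes (12 of 19, 0.961 points) and genes of interferon and viral sensing (5 of 23, 1.56 points) had 4, 3 and 0 above and 0 below each. Without candidate fragment-end sites and against sham 1 alone, the medians of all these lists lay between -0.0396 and 0.451 points, beside 0.131 over all promoters.

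Markers of cell types were thinly covered. Of 26 leukocyte markers 5 were tested, none with groups that did not overlap, and Runx1, a blood cell transcription factor gene, had 15.1% and 16.5% in sham and 15.6% and 17.1% in 5AZA. Without candidate fragment-end sites Runx1 had 1.78% and 1.47% in sham and 1.71% and 2.57% in 5AZA. Kdr and Flt1 were the endothelial markers tested of 13, and Gli2 and Nt5e the fibroblast and pericyte markers tested of 13. Of 22 tubule markers Lrp2 and Ggt1 were tested. Lrp2, the endocytic receptor megalin, had 15.9% and 16.6% in sham and 15.2% and 16.3% in 5AZA, with overlapping groups. Without candidate fragment-end sites Lrp2 had 2.24% and 1.20% in sham and 1.85% and 2.76% in 5AZA. Ggt1, gamma-glutamyltransferase of the tubule brush border, had 54.7% and 58.0% in sham, 64.6% and 65.6% in 5AZA and a mean of 69.5% in saline, a difference from sham of 8.72 points that did not pass (edgeR adjusted p = 0.756). Both 5AZA libraries lay above both sham libraries at Ggt1, which holds no candidate fragment-end site, and was named after its value was seen.

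Of 32 listed imprinted genes 9 were tested, 0 called, 4 above and 1 below, beside 34.7% and 3.7% of all promoters, with a median of 1.67 points. The promoter of Igf2r, the receptor that clears Igf2, had 29.1% and 20.9% in sham, 39.3% and 37.4% in saline and 35.7% and 29.5% in 5AZA over 53 sites. Plagl1, a zinc finger gene, had 44.6% and 36.3% in sham, 47.5% and 48.1% in saline and 43.9% and 53.5% in 5AZA, with overlapping groups. Mcts2, a retrogene, was the one below, with 54.8% and 58.0% in sham and 53.2% and 53.9% in 5AZA. These genes were named after their values were seen.

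The 10 promoters of smallest p in the higher direction were Epb41, Cds1 with its neighbour Gm42134, Dnah7c, Tsn, Irx3, Irf2bp2, Mok with 4921507G05Rik, and Chordc1. Much of the difference at several of them lay in candidate fragment-end sites. Epb41, a membrane skeleton protein gene, had 12.1% and 11.7% in sham and 20.3% and 16.3% in 5AZA, a difference of 6.41 points that was 0.723 points without these sites. Irx3, a nephron patterning gene, went from 4.51 to 1.47 points and Cds1 from 3.31 to 1.13. Mok, a kinase gene, and 4921507G05Rik, placed by 6 and 14 matched CpGs, held no such site and had 16.0% and 13.9% in sham, 18.0% and 17.2% in saline and 23.4% and 21.4% in 5AZA over 11 sites. Dnah7c, an axonemal dynein gene, had 32.0% and 34.4% in sham and 39.5% and 42.9% in 5AZA, with saline at 40.6% and 40.2%, but rested on only 6 matched CpGs for its position, and its difference on the log2 odds scale turned to -0.0448 at a coverage minimum of 20. None was called (edgeR adjusted p = 0.756 for each).

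Hoxa5 and Jag1 are named in the title of the series. Hoxa5, a homeobox transcription factor gene, had 20.6% and 18.9% in sham and 22.8% and 18.98% in 5AZA over 33 sites, with saline at 31.3% and 33.5%. The 5AZA and sham libraries overlapped, and the difference of 1.13 points was within their spread (19.8% ± 1.19 and 20.9% ± 2.71, SD, n = 2 each). Jag1, a Notch ligand gene, had 14.5% and 13.8% in sham and 15.1% and 15.4% in 5AZA, and without candidate fragment-end sites 1.40% and 0.690% against 1.73% and 1.44%. Kl, the antifibrotic gene klotho, had 13.2% and 12.3% in sham and 14.6% and 13.6% in 5AZA, and without candidate fragment-end sites 3.01% and 2.64% against 3.98% and 3.86%. The adjusted p was 0.833 for Hoxa5 and 0.768 for Jag1 and Kl by edgeR.

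Single CpG sites gave 14 calls of 920122 tested (0.00152%), 11 lower in 5AZA (0.0012%) and 3 higher (0.000326%). An unadjusted p under 0.05 was found at 32389 sites (3.52%), lower at 2.4% and higher at 1.12% of those tested. The deepest 0.1% of sites held 10 of the 14, and 1 call was left when those were not tested. That call, chr7:89920038, lay 122.9 kb downstream of the start of Efl1 and within that gene by its RefSeq length. It had 11.9% and 10.7% in sham, 20.8% and 48.8% in saline and 55.1% and 51.6% in 5AZA (84 to 265 reads, edgeR adjusted p = 0.000174). At chr1:149941456 sham had 100% in both libraries, saline 90.2% and 100%, and 5AZA 64.3% and 64.1%. At chr15:79891848, upstream of Syngr1, sham had 94.1% and 100%, saline 54.8% and 55.0%, and 5AZA 72.8% and 42.2%, so that all 4 libraries of obstructed kidney stood below both sham libraries. Sham took part in this call, so saline against sham there is a description only. At other called sites sham 2 stood apart from sham 1. At chr16:4590427 it had 83.3%, against 12.2% in sham 1 and 8.65% and 9.41% in 5AZA. Sham 2 also stood far from sham 1 at chr16:4590410 (72.1% against 15.2%), chr4:10065181 (58.9% against 98.6%), chr17:39981541 (0.683% against 24.8%), chr18:73693091 (96.8% against 77.8%), chr17:36368220 (95.1% against 71.4%) and chr3:61963056 (93.7% against 66.3%). Calls numbered 103 without sham 1 and 31 without sham 2. These sites were named after their values were seen.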

How the data were processed

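Reduced representation bisulfite libraries were made with MspI and inserts of 40 to 120 and 120 to 220 bp, per the labels' protocols. The deposited files held, per CpG, a count of covering reads, a count of methylated reads and the methylated fraction, which equals their ratio. Bowtie and the mouse build mm9 are named per the submitters' processing notes. For other tools, versions and trimming: not given in the sources used here. Members and lists were chosen with earlier results of these data known.

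Sites with 10 or more reads in all 6 libraries were used, and a library's level is the mean over sites, or methylated over all reads within a window, promoter or site. A site was a candidate fragment end where its coverage was within 5% of the summed coverage of neighbours within 220 bp, or where it reached 30% although its window (10 or more sites) had a median under 5%. The most deeply covered sites were the top 0.1%. Methylated and unmethylated counts were tested with edgeR 4.0.16 (quasi-likelihood, intercept per library, common dispersion, all 6 libraries), per window of 1000 bp or promoter with 3 or more sites and per site, with an adjusted p under 0.05 as the threshold. limma 3.58.1 on log ratios, with 1 added to each count, was an alternative (R 4.3.3, Python 3.11.15, pandas 2.3.3, scipy 1.17.1). Named windows and promoters were those called and then those of smallest p, up to 10 in each direction, with groups that did not overlap, and Hoxa5, Jag1 and Kl. Scripts were tested on simulated data.

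RefSeq promoter sequences (GRCm38.p6) were placed on mm9 where at least 6 covered sites matched their CpG spacing, none contradicted it, and the place was unique and in RefSeq order. This placed 10852 of 32851 starts. When all chromosomes were searched, 516 of 768 sequences with 6 matched sites and 6250 of 6255 with 15 or more fell on RefSeq's chromosome. Promoters without enough CpG sites in MspI fragments are missing.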

Additional observations from a re-analysis of the deposited data

How the results depend on the processing

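The lower level of 5AZA at sites of 80 to 95% and of 95% or more kept its direction under every alternative run, with ranges of -3.10 to -1.27 and -2.30 to -1.44 points when 1 library was left out. Over all sites the difference ran from -1.18 to 0.314 points when 1 library was left out, and was 0.750 points as methylated over all reads and 0.362 over every site a library covered. For the other classes, leaving out 1 library gave 0.108 to 0.931 points under 5%, -0.0401 to 1.56 at 5 to 20%, -1.54 to 1.09 at 20 to 40%, -2.19 to 1.72 at 40 to 60% and -1.45 to 2.19 at 60 to 80%. Called windows numbered 1 to 144 when 1 library was left out, and 0 without candidate fragment-end sites (11872 at an unadjusted p under 0.05), by limma and by limma with centred libraries. Called promoters numbered 0 to 4 when 1 library was left out, 3 with only the 4 libraries compared and 5 by limma. Called sites numbered 6 to 103 when 1 library was left out, 1 without the most deeply covered sites and 8 with only 4 libraries. Where 1 library is left in a group, it was assumed to vary like the others. Windows 20 points higher in saline stood 4.26 points above the sham library kept out when chosen with sham 1 and -0.906 when chosen with sham 2. On the log2 odds scale of edgeR the direction turned for the window near Eef2 (0.0345 without the most deeply covered sites), and for the promoters of Dnah7c (-0.0448) and Epb41 (-0.335) at a coverage minimum of 20. Leaving out 1 library, it ran from -0.0800 (without 5AZA 1) to 0.256 for the Hoxa5 promoter, from -0.438 (without sham 2) to 5.14 for the site chr17:39981541, and from -3.07 to 0.0320 (without sham 2) for the site chr18:73693091. The cause of these changes was not tested. No paired analysis was possible by replicate number, because the labels give sham 2 no replicate number, so the groups compared share fewer than 2 numbers. Such a number only counts the libraries within a group. Shared numbers alone would not show that obstructed and sham-operated kidneys were matched, so they would not justify a paired test. Sham 2 had the lowest depth, a median of 21 reads per site.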
